A study of Mus musculus with 18 samples.

Results

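The transcripts described here encode the receptors of interleukin-6 (IL-6) and interleukin-27, the kinases and the transcription factor that act behind these receptors, and products of Th17 cells, the helper T cells that make interleukin-17. They are the 9 genes Il6ra, Il6st, Il27ra, Jak1, Jak2, Tyk2, Stat3, Il17a and Il23r, treated as 1 pathway. On the Affymetrix M430v2 array, 19 probe sets carried the symbol of a member as their only gene symbol, and together they covered 8 of the 9 members, of 18193 genes covered in the same way. Il23r had no such probe set and was not analysed here. Each gene is described by its probe set with the highest mean over the 18 arrays, and its other probe sets are given as a check. All 8 members passed the filter on dim signals, which kept 12258 genes.

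The study measured RNA of CD4+ T cells sorted from 3 tissues of the mouse on 18 arrays, in 6 groups of 3. CD25+ cells are called Treg and CD25- cells Tconv, as in the labels. All cells were sorted as CD4+ and as negative for B220, CD11b and CD8a, and their RNA was amplified in 2 rounds before labelling. Fat Treg and fat Tconv came from the abdominal (epididymal) adipose tissue of male C57Bl/6 mice of 25 to 35 weeks, with 8 to 10 mice pooled per array and TCRb+ added to the sort. Thymus Treg and thymus Tconv came from BDC2.5/NOD mice aged 4 to 6 weeks, with 3 to 6 mice pooled per array and CD8a+ cells depleted with magnetic beads before the sort. BDC2.5/NOD mice carry a transgenic T cell receptor on the autoimmune-prone NOD background. Lymph node Treg and lymph node Tconv came from cervical, inguinal and mesenteric nodes of C57BL/6 mice of 32 to 36 weeks, with 3 to 6 mice pooled per array. The labels give a sex for the fat groups alone, and tissue, strain and age cannot be told apart between thymus and lymph node. Replicates are pools, so an error measures the spread between pools and not between mice, and 3 arrays a group limit the precision.

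IL-6 binds the IL-6 receptor alpha chain, encoded by Il6ra, and the pair then engages gp130, the shared signalling chain encoded by Il6st; interleukin-27 signals through gp130 with the chain encoded by Il27ra. The kinases JAK1, JAK2 and TYK2 sit on the tail of gp130 and phosphorylate STAT3, which enters the nucleus. In naive CD4 T cells IL-6 together with TGF-beta drives the Th17 programme through STAT3, with Il17a and the interleukin-23 receptor gene Il23r among its products, whereas TGF-beta without IL-6 favours Treg.

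The 4 members with the largest changes between tissues were Il6ra, Il6st, Stat3 and Jak2, and their promoters are shown for that reason. The sequences are the 250 bases before the gene start on the coding strand, 5′ to 3′, from RefSeq on build GRCm38.p6; 8 of the 9 members were matched in that table, and Il27ra was not. Capitals mark CCAAT and GGGCGG (the CCAAT box and the GC box) on either strand.
Il6ra: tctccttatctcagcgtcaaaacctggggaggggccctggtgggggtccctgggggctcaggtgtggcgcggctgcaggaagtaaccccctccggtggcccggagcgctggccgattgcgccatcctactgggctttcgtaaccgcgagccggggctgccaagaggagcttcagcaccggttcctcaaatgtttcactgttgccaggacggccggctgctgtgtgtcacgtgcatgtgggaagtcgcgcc
Il6st: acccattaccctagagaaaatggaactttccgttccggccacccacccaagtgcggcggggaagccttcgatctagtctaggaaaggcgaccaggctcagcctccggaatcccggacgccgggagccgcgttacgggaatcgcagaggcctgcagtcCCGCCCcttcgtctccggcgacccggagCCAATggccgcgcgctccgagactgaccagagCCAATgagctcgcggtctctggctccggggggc
Stat3: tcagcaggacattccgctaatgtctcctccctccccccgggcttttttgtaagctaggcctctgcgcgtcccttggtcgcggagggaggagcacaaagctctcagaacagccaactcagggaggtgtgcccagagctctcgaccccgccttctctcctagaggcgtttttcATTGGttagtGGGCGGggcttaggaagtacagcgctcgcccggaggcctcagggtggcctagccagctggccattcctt
Jak2: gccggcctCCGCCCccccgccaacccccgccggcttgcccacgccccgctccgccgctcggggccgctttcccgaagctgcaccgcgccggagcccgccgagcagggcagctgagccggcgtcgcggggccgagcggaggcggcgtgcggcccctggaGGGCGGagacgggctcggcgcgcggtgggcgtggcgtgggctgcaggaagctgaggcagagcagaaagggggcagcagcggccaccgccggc
The Il6ra promoter lies at chr3:89913197-89913446 on the minus strand, that of Il6st at chr13:112463820-112464069 on the plus strand, that of Stat3 at chr11:100939541-100939790 on the minus strand and that of Jak2 at chr19:29251553-29251802 on the plus strand. They held 18, 26, 13 and 37 CG pairs in the same order, against a median of 6 over the 32851 promoters of the table. The CCAAT box was matched in Il6st and Stat3, and in 33.8% of all promoters. The GC box was matched in Il6st, Stat3 and Jak2, and in 32.7% of all promoters. TTCNNNGAA, the palindrome that STAT dimers bind, was matched on neither strand in any of the 8 member promoters, and in 7.02% of all promoters. The Il17a and Il23r promoters, which are not shown, held 4 and 1 CG pairs.

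Levels are array intensities on a linear scale after quantile normalization of the 18 arrays, given in the order of replicates 1 to 3. Changes are differences in log2 intensity with their SE, from a limma fit over all 18 arrays with 1 coefficient per group. Among the 12258 genes a change was called, and is said to have risen or fallen, where its p after Benjamini-Hochberg adjustment was under 0.05. Intensities of different genes cannot be set against each other, since each probe set has its own response. In sorted bulk cells, fewer cells that carry a transcript and less of it per cell cannot be told apart. As deposited, the 6 fat arrays had medians of 76.9 to 82.2 and the other 12 had medians of 57.9 to 63.0, which is why the arrays were put on 1 scale; the median change of all genes was then -0.01 between fat and lymph node Treg and -0.04 between fat and lymph node Tconv. Arrays of a group correlated at r = 0.974 to 0.991 over all probe sets. The Treg marker list was higher in Treg of each tissue in 5 of 5 genes, 1 of which, Il2ra, encodes the sort marker CD25, and none of 6 tested CD4 T cell markers was called in any comparison, although with the pairing as a block 3 in thymus and 2 in lymph node were lower in Treg than in Tconv.

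The most called members were in the comparison of fat with lymph node Treg. In fat Treg, against lymph node Treg, the 3 receptor genes fell and Stat3 and Jak2 rose. These are 5 called members of 8 (2 higher, 3 lower) where 35.3% of all genes were called, 16% higher and 19.3% lower. In fat Tconv, against lymph node Tconv, Il6st and Il27ra fell and Stat3 rose, 3 of 8 where 23.3% of all genes were called, 11% higher and 12.3% lower. Of the comparisons of Treg with Tconv within a tissue, Jak2 was called in fat, where it was higher in Treg (1 of 8, with 12.8% of all genes called, 6.84% higher). Treg and Tconv differed in 0 of 8 members in thymus and 0 of 8 in lymph node by limma, where 5.51% and 4.59% of all genes were called; 1 of 8 members in thymus and 0 of 8 in lymph node had an unadjusted p under 0.05.

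**Figure D1:**
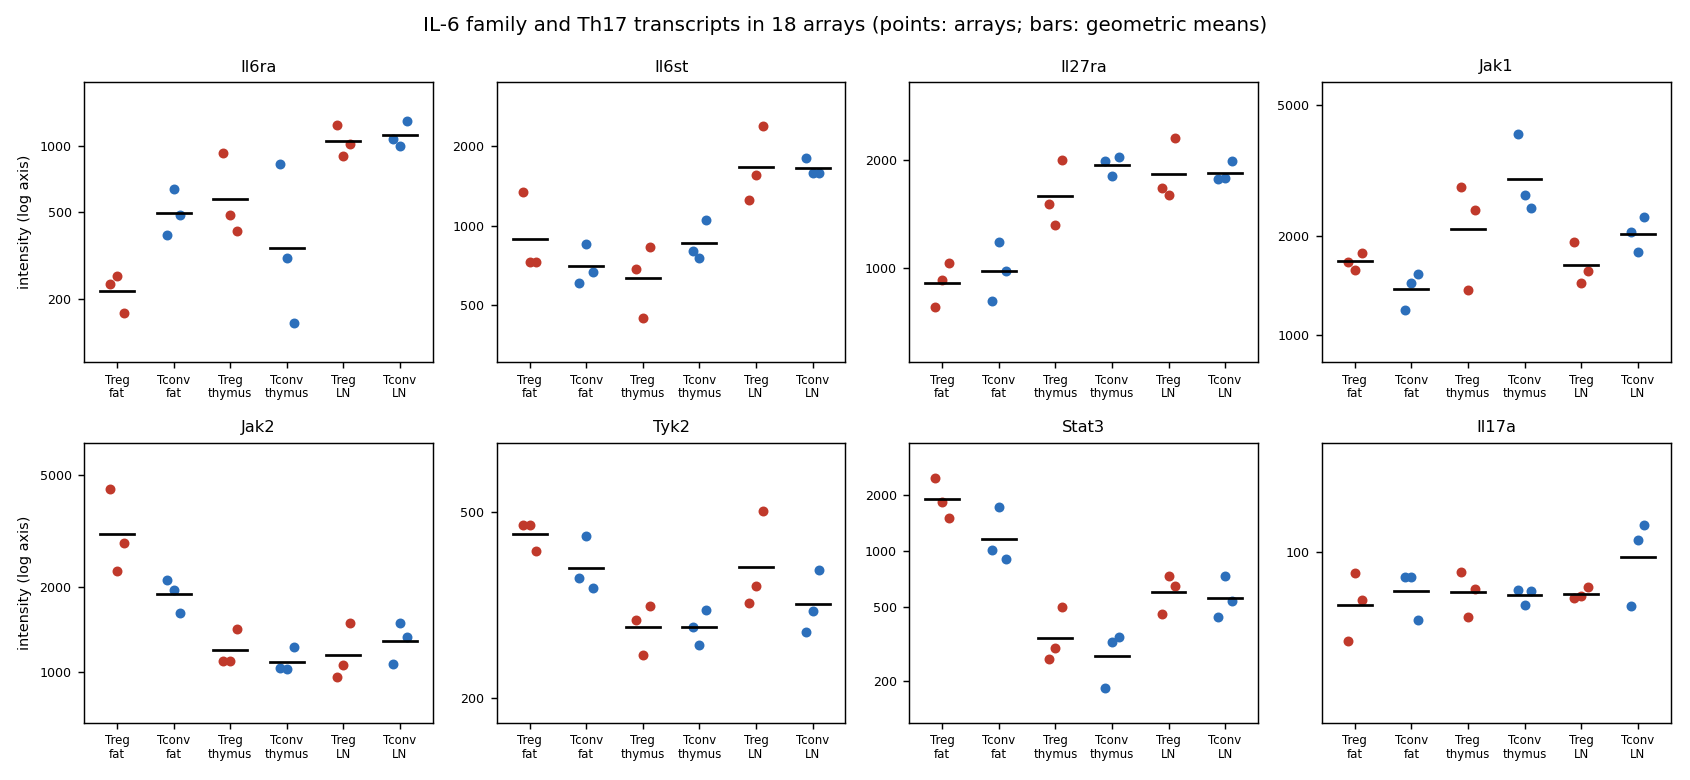
Intensity of the 8 measured members in each of the 18 arrays (log axis, quantile-normalized; points are arrays, bars are geometric means of 3 arrays; Treg in red, Tconv in blue), by tissue. Il6ra is lowest in fat Treg (geometric mean 218), Stat3 and Jak2 are highest there (1894 and 3092), and Il17a lies between 70.3 and 111 in all arrays.

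Il6ra encodes the chain that gives a cell its specific sensitivity to IL-6. Its transcript had its lowest group mean in fat Treg and its lowest single array, at 155, in thymus Tconv. Its intensities were 235, 255 and 172 in fat Treg, against 1252, 901 and 1025 in lymph node Treg. No fat Treg array came near a lymph node Treg array. In means, this was 221 ± 43.0 in fat Treg and 1059 ± 178 in lymph node Treg (SD, n = 3 each), a 4.82-fold lower level on the log scale (-2.27 ± 0.42, adjusted p = 0.000476). The call held under each of 14 alternatives, with adjusted p from 2.49e-05 to 0.00348. Fat Tconv had 391, 636 and 486, against 1075, 1001 and 1301 in lymph node Tconv, and these groups did not overlap either. That difference missed the threshold (-1.18 ± 0.42, adjusted p = 0.0542, and 0.00452 to 0.173 over 14 alternatives). With the array run, a stretch of consecutive array file numbers, as a block, its adjusted p was 0.00854, and without fat Tconv replicate 2 it was 0.0498.

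Within fat, Il6ra was lower in each Treg array than in each Tconv array, with a difference of -1.18 ± 0.42 (adjusted p = 0.0847). Treg and Tconv arrays with the same number varied together, and with that pairing as a block the difference was called (adjusted p = 0.00117; 0.00117 to 0.265 over 14 alternatives). Lymph node Treg and Tconv overlapped, and their difference was -0.09 ± 0.42 (adjusted p = 0.983). The Treg effect in fat minus that in lymph node was -1.09 ± 0.60 (adjusted p = 0.448), and 0.0309 with the pairing as a block and 0.0309 to 0.687 over 21 alternatives.

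In thymus the spread of Il6ra was wide. Its intensities were 929, 486 and 411 in thymus Treg and 830.2, 309 and 155 in thymus Tconv, with replicate 1 highest in both. Thymus Treg was above thymus Tconv in each numbered pair, by 0.16, 0.65 and 1.41 on the log2 scale. The difference was 0.74 ± 0.42 (adjusted p = 0.446); it was called with the pairing as a block (adjusted p = 0.0349) and without thymus Tconv replicate 1 (1.38, adjusted p = 0.0241), in a range of 0.0241 to 0.924 over 14 alternatives. Against lymph node, thymus Tconv fell by 1.71 on the log2 scale (adjusted p = 0.0144), and thymus Treg differed by -0.88 ± 0.42 without passing (adjusted p = 0.218). The thymus Tconv call was lost without lymph node Tconv replicate 3 (adjusted p = 0.0654), thymus Tconv replicate 2 (0.0532) or thymus Tconv replicate 3 (0.0806), within 0.000249 to 0.0806 over 13 alternatives. From high to low the groups ran lymph node Tconv, lymph node Treg, thymus Treg, fat Tconv, thymus Tconv and fat Treg, and no neighbours in that order differed beyond their spread.

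The second Il6ra probe set, 1422270_a_at, gave no call in any comparison with lymph node. Its intensities were 123, 136 and 153 in fat Treg and 124, 124 and 139 in lymph node Treg. The difference was 0.09 ± 0.12 (adjusted p = 0.592 in a fit over the 25665 probe sets that passed the filter), and between fat and lymph node Tconv it was -0.05 ± 0.12 (0.82). It is the dimmer set, with arrays between 119 and 157. The results on Il6ra thus rest on 1 probe set of 2.

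Il6st encodes gp130, the chain through which the receptors of IL-6, interleukin-27 and most of their family signal. Fat Treg had 1338, 725 and 725, against 1254, 1553 and 2383 in lymph node Treg. Replicate 1 was the highest of the fat Treg arrays and overlapped the lowest lymph node Treg array. Il6st fell by 0.91 on the log2 scale (SE 0.27, adjusted p = 0.0154). The call was lost on the deposited values (-0.59, adjusted p = 0.0949) and without lymph node Treg replicate 3 (0.0841), fat Treg replicate 2 (0.0712) or fat Treg replicate 3 (0.071), within 0.00288 to 0.0949 over 14 alternatives. Fat Tconv had 605, 854 and 665, all below 1806, 1585 and 1576 in lymph node Tconv. That was a 2.36-fold lower level (-1.24 ± 0.27, adjusted p = 0.00311), and the call held under each of 14 alternatives.

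Both thymus groups also lay below their lymph node counterparts on this probe set. Thymus Treg had 684, 445 and 828 and thymus Tconv had 799.8, 752 and 1047, and neither overlapped lymph node. Il6st fell by 1.40 in thymus Treg against lymph node Treg (adjusted p = 0.0022) and by 0.95 in thymus Tconv against lymph node Tconv (adjusted p = 0.0361). The call in Tconv was lost in 5 of 6 fits with an array left out: without lymph node Tconv replicate 1, 2 or 3 the adjusted p was 0.1, 0.0884 and 0.0857, and without thymus Tconv replicate 1 or 2 it was 0.121 and 0.128. It was also lost on the deposited values (0.0737) and on arrays centred on their median (0.0891), in a range of 0.00439 to 0.993 over 13 alternatives. Treg and Tconv of a tissue were not told apart on this probe set, with differences of 0.35 ± 0.27 in fat (adjusted p = 0.542; 0.0164 with the mean of all probe sets, 0.43; 0.0164 to 0.972 over 14 alternatives), -0.44 ± 0.27 in thymus (0.499) and 0.01 ± 0.27 in lymph node (0.998). Lymph node Treg and Tconv led the order, and the step from lymph node Tconv to the next group, fat Treg, was called (adjusted p = 0.0156); the remaining neighbours, thymus Tconv, fat Tconv and thymus Treg, were not told apart.

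A second Il6st probe set, 1437303_at, showed the fall in fat but the opposite in thymus. It had 294, 303 and 274 in fat Treg, 1132, 1282 and 1254 in thymus Treg and 419, 441 and 639.7 in lymph node Treg. Against lymph node it was lower in fat Treg (-0.76 ± 0.28, adjusted p = 0.0485) and fat Tconv (-1.98 ± 0.28, 8.47e-05), and higher in thymus Treg (1.32 ± 0.28, 0.00515) and thymus Tconv (1.51 ± 0.28, 0.00198). So the direction of Il6st between thymus and lymph node depends on the probe set, and with the mean of all its probe sets neither thymus call remained (adjusted p = 0.622 in Treg and 0.993 in Tconv). On 1437303_at, fat Treg was also above fat Tconv (88.6, 161 and 156) in every array, by 1.15 ± 0.28 (adjusted p = 0.0114). The other 2 Il6st probe sets stayed under the filter on dim signals in all groups.

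Il27ra encodes the chain that pairs with gp130 to bind interleukin-27, a cytokine that restrains Th17 cells. It was measured by 1 probe set and was lower in fat in both cell types. Fat Treg had 781, 928 and 1035, against 1667, 1594 and 2304 in lymph node Treg. The level was 2.01-fold lower in fat Treg (-1.01 ± 0.18, adjusted p = 0.000348; 0.000236 to 0.00978 over 14 alternatives). Fat Tconv had 811, 1179 and 979, against 1765, 1784 and 1981 in lymph node Tconv, a 1.88-fold lower level (-0.91 ± 0.18, adjusted p = 0.00146; 0.000987 to 0.0222 over 14 alternatives). No array overlapped in either comparison, and both calls held under every alternative run.

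Thymus and lymph node overlapped in Il27ra. Thymus Treg had 1506, 1318 and 1997 and thymus Tconv 1982, 1797 and 2033, with differences from lymph node of -0.21 ± 0.18 in Treg (adjusted p = 0.583) and 0.07 ± 0.18 in Tconv (0.89). From high to low, thymus Tconv, lymph node Tconv, lymph node Treg and thymus Treg were not told apart from their neighbours. The step down to fat Tconv was called (adjusted p = 0.00714), and fat Tconv and fat Treg were again not told apart. Treg and Tconv of the same tissue differed by -0.11 ± 0.18 in fat, -0.29 ± 0.18 in thymus and -0.01 ± 0.18 in lymph node, none called (adjusted p = 0.84, 0.506 and 0.998).

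**Figure D2:**
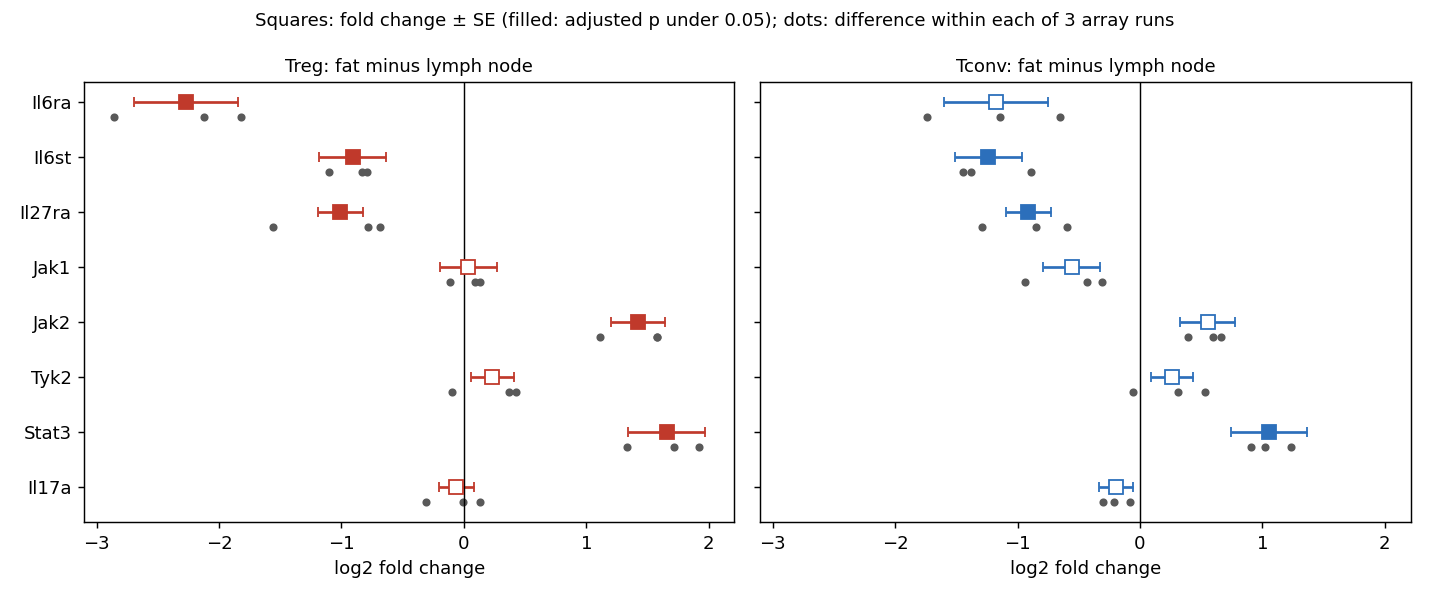
Log2 fold change of each member between fat and lymph node in Treg (left) and Tconv (right): squares are the fitted change ± SE (n = 3 arrays a group, filled where the adjusted p is under 0.05) and dots the difference within each of 3 array runs. Il6ra, Il6st and Il27ra lie below 0 and Jak2 and Stat3 above 0 in all 3 runs of both cell types, from -2.86 for Il6ra to 1.92 for Stat3 in Treg.

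The fat and lymph node arrays fall into the same 3 array runs, so that each member can be set against itself within a run. Deviations of such arrays from their group means correlated at r = 0.38, 0.09 and 0.09 in Treg. In Tconv r was 0.40, -0.04 and 0.39, and across runs it was -0.44 to 0.24. The pairing by run was thus weak in some runs. For Il6ra the fat minus lymph node difference was -2.86, -1.82 and -2.12 in Treg and -1.15, -0.66 and -1.74 in Tconv, so that it was lower in fat in every run. For Il27ra it was -0.69, -0.78 and -1.56 in Treg and -0.85, -0.60 and -1.29 in Tconv, with the last run showing the widest gap. For Il6st it was -0.79, -1.10 and -0.83 in Treg, so the overlap of its pooled groups did not arise within a run. Thymus and lymph node share 1 run only, in which the thymus minus lymph node difference of Il6ra was -1.61 in Treg and -2.80 in Tconv. That of Il6st was -0.60 in Treg and -0.79 in Tconv. In that run both genes were thus lower in thymus on the probe sets used for them, with 1 array a group. For Il6st the direction between thymus and lymph node depends on the probe set, as described above.

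Jak1, the kinase that IL-6 signalling through gp130 depends on most, did not pass in any comparison. Its intensities were 1668, 1574 and 1774 in fat Treg, against 1917, 1437 and 1566 in lymph node Treg, which overlap (0.04 ± 0.23, adjusted p = 0.917). Fat Tconv had 1188, 1439 and 1528, below each of 2059, 1779 and 2271 in lymph node Tconv. That difference was -0.56 ± 0.23 (adjusted p = 0.0971; 0.048 in a fit of these groups alone, within 0.048 to 0.447 over 14 alternatives). In fat the 3 Treg arrays lay just above the 3 Tconv arrays (0.28 ± 0.23, adjusted p = 0.573). In thymus, Treg had 2819.5, 1370.1 and 2392 and Tconv 4071, 2666 and 2424, so the highest group mean of Jak1 on this probe set was in thymus Tconv. The thymus difference between Treg and Tconv was -0.50 ± 0.23 (adjusted p = 0.294; 0.0569 with the pairing as a block). Without thymus Treg replicate 2, the lowest of its group, thymus Treg was called above lymph node Treg (0.67, adjusted p = 0.0468); with it the difference was 0.37 ± 0.23 (0.392, and 0.0468 to 0.862 over 13 alternatives). No neighbours in the order of its 6 levels were told apart, and no other Jak1 probe set passed in any comparison. The order in thymus depended on the probe set. On 1433805_at Treg minus Tconv in thymus was -0.50 ± 0.25 (adjusted p = 0.377). On the dimmer 1433804_at it was 0.82 ± 0.35 (0.266), with thymus Treg the highest group (mean 246) and thymus Tconv the lowest (151).

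Jak2, which also serves the receptors of interferon-gamma, interleukin-23 and leptin, was highest in fat Treg. Its intensities were 4461, 2297 and 2885 in fat Treg, against 966, 1061 and 1492 in lymph node Treg. Every fat Treg array was above every other array of the 18. The level rose 2.68-fold in fat Treg (1.42 ± 0.22, adjusted p = 8.59e-05), and the call held under each of 14 alternatives (3.7e-06 to 0.00219). Fat Tconv had 2122, 1956 and 1628, all above 1075, 1490.3 and 1338 in lymph node Tconv. Their difference of 0.55 ± 0.22 did not pass (adjusted p = 0.0832), although it did with the array run as a block (0.0279; 0.00359 to 0.266 over 14 alternatives).

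Jak2 was the member called between fat Treg and fat Tconv in the fit without the pairing, with means of 3214 ± 1119 (SD, n = 3) in fat Treg and 1902 ± 251 (SD, n = 3) in fat Tconv (0.71 ± 0.22, adjusted p = 0.0432). It was 1 called member of 8, with 12.8% of all genes called in that comparison. The call rests on single arrays: the adjusted p was 0.252 without fat Treg replicate 1, the highest array (0.45), and 0.0769, 0.088 and 0.174 without fat Treg replicate 3, fat Tconv replicate 2 or fat Tconv replicate 3. It was 0.119 in a fit of the 2 groups alone, 0.0544 with no filter and 0.00575 with the pairing as a block, within 0.00575 to 0.252 over 14 alternatives. In lymph node the same difference was -0.16 ± 0.22 (adjusted p = 0.912) and in thymus 0.14 ± 0.22 (0.865). The Treg effect in fat minus that in lymph node was 0.87 ± 0.31 (adjusted p = 0.147), and 0.0237 with the pairing as a block (0.0237 to 0.357 over 21 alternatives).

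Thymus and lymph node overlapped in Jak2, with 1101, 1101 and 1430.2 in thymus Treg and 1035, 1024 and 1226 in thymus Tconv. Of its 6 levels, fat Treg came before fat Tconv, a step that was called, and then lymph node Tconv, thymus Treg, lymph node Treg and thymus Tconv, whose steps were not. A second probe set, 1421065_at, also rose in fat Treg against lymph node Treg (2.20 ± 0.28, adjusted p = 1.62e-05). Its intensities were 1211, 567 and 911 in fat Treg and 167, 152 and 257 in lymph node Treg, without overlap. On that set fat Tconv rose against lymph node Tconv as well (1.14 ± 0.28, 0.00724), and fat Treg against fat Tconv stayed short of the threshold (0.82 ± 0.28, 0.0766).

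Tyk2, the kinase shared with the receptors of interleukin-12, interleukin-23 and type I interferon, passed in no comparison. Fat Treg had 468, 468 and 411 and lymph node Treg 319, 348 and 501, a difference of 0.23 ± 0.17 (adjusted p = 0.314). Fat Tconv had 360.1, 443 and 343 and lymph node Tconv 277, 307 and 374, a difference of 0.26 ± 0.17 (adjusted p = 0.316). Both pairs overlapped. On the deposited values, where the median change of all genes was 0.37 in Treg and 0.33 in Tconv, both differences were called (0.48 and 0.58). Thymus Treg had 293, 248 and 315, just under the lymph node Treg arrays (-0.43 ± 0.17, adjusted p = 0.127), and thymus Tconv had 283, 259.7 and 309 (-0.16 ± 0.17, 0.681). From fat Treg, the highest, to thymus Tconv, the lowest, no neighbours were told apart, and no other Tyk2 probe set passed.

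Stat3, the transcription factor that IL-6 activates, was highest in fat and lowest in thymus by group mean on the probe set used for it. Its intensities were 2466, 1841 and 1498 in fat Treg, against 457, 732 and 649 in lymph node Treg. All fat Treg arrays were above all lymph node arrays. It rose 3.15-fold in fat Treg (1.66 ± 0.31, adjusted p = 0.000505), and the call held under each of 14 alternatives (3.03e-05 to 0.00427). Fat Tconv had 1015, 1724 and 900.1, against 442, 733 and 541 in lymph node Tconv, without overlap. It rose 2.08-fold there (1.06 ± 0.31, adjusted p = 0.0205). This second call was lost without lymph node Tconv replicate 1 (adjusted p = 0.0904), lymph node Tconv replicate 3 (0.056) or fat Tconv replicate 2 (0.0968), within 0.00274 to 0.0968 over 14 alternatives.

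Fat Treg and fat Tconv overlapped in Stat3 at 1 array, fat Tconv replicate 2. Their difference was 0.70 ± 0.31 (adjusted p = 0.185), and 0.0181 with the pairing as a block (0.00592 to 0.511 over 14 alternatives). In thymus the levels were 264, 301 and 499 in Treg and 185, 325 and 347 in Tconv. Thymus Tconv fell by 1.03 against lymph node Tconv on the log2 scale (adjusted p = 0.0479), without overlap, and thymus Treg differed from lymph node Treg by -0.82 ± 0.31 (adjusted p = 0.104). Without thymus Treg replicate 3 the difference in Treg was called (-1.09, adjusted p = 0.0298; 0.0298 to 0.36 over 13 alternatives). The thymus Tconv call was lost without lymph node Tconv replicate 2 (adjusted p = 0.215) or 3 (0.113) and without thymus Tconv replicate 1 (0.252) or 2 (0.064). It was also lost on the deposited values (0.0821), on centred arrays (0.106), with no filter (0.0635) and with the mean of all probe sets (0.128), within 0.0343 to 0.252 over 13 alternatives. In the 1 array run that holds both tissues, thymus Treg lay 0.13 above lymph node Treg and thymus Tconv differed from lymph node Tconv by -0.35. Of the 6 levels, fat Treg and fat Tconv led, the step from fat Tconv to lymph node Treg was called (adjusted p = 0.0351), and the steps on to lymph node Tconv, thymus Treg and thymus Tconv were not.

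The other 3 Stat3 probe sets were all higher in fat Treg and differed elsewhere. Against lymph node Treg, fat Treg was higher on 1426587_a_at (1.19 ± 0.19, adjusted p = 0.000123), 1460700_at (0.57 ± 0.20, 0.0342) and 1424272_at (0.97 ± 0.19, 0.00072). On 1426587_a_at the levels were 1342, 942 and 937 in fat Treg, 677, 449 and 490.4 in fat Tconv and 463, 471 and 453 in lymph node Treg. Here fat Treg was also called above fat Tconv (1.00 ± 0.19, adjusted p = 0.00152), as it was on 1460700_at (0.79 ± 0.20, 0.0126) but not on 1424272_at (0.17 ± 0.19, 0.693). Fat Tconv against lymph node Tconv was called on 1424272_at alone of these 3 (0.71 ± 0.19, 0.0105), and was 0.42 ± 0.19 on 1426587_a_at and -0.09 ± 0.20 on 1460700_at. None of the 3 was called between thymus and lymph node, with changes of -0.24 ± 0.19, -0.22 ± 0.20 and -0.08 ± 0.19 in Tconv.

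**Figure D3:**
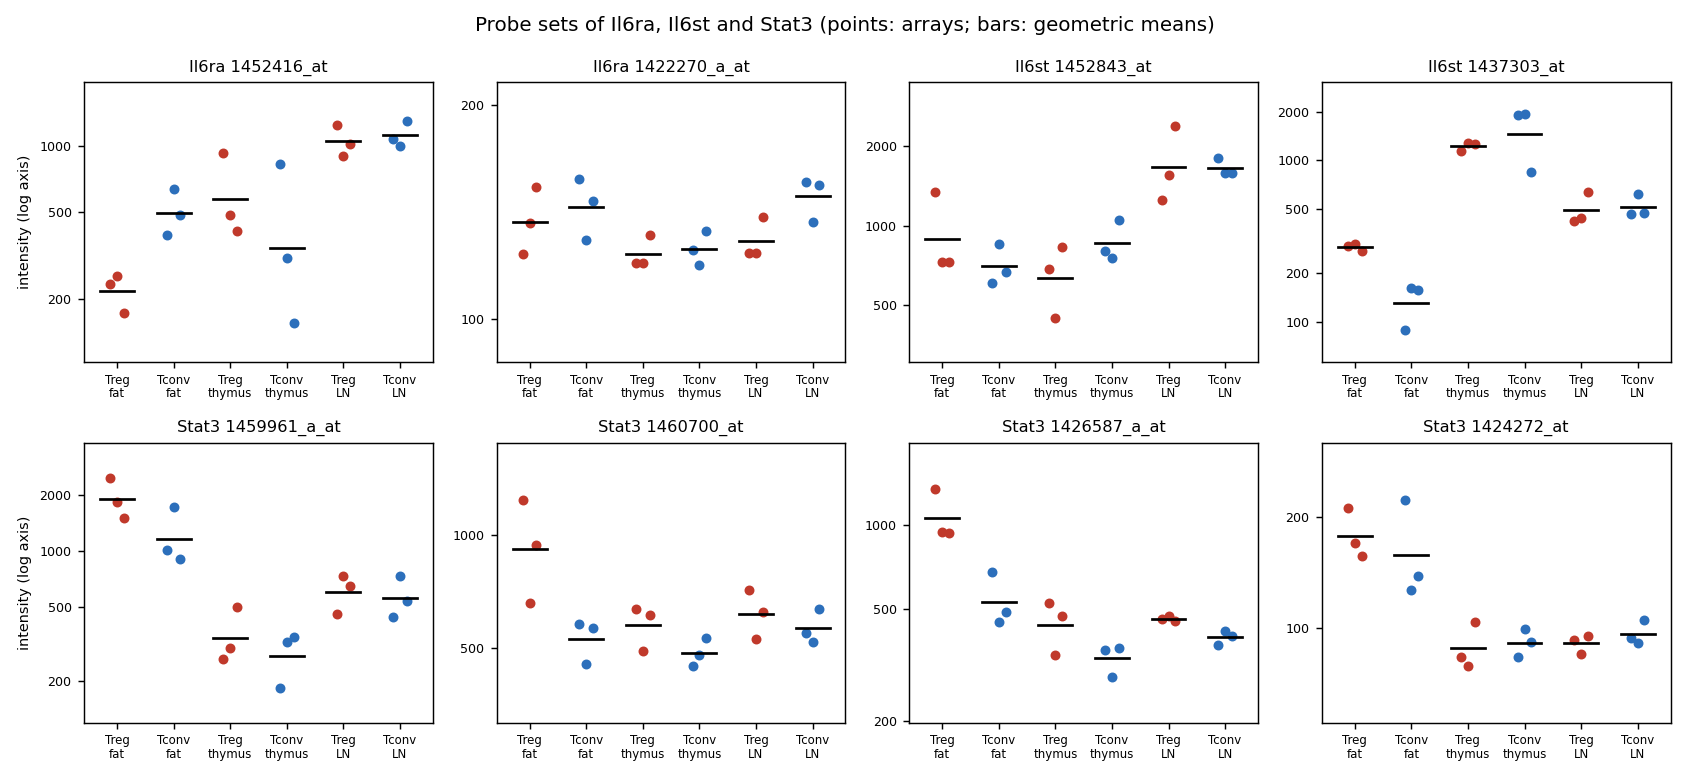
Intensity of probe sets of Il6ra, Il6st and Stat3 in each array (log axis; points are arrays, bars geometric means; Treg in red, Tconv in blue). Il6ra 1422270_a_at lies between 119 and 157 in all arrays, Il6st 1437303_at is above lymph node in thymus where 1452843_at is below it, and all 4 Stat3 probe sets are higher in fat Treg than in lymph node Treg (changes of 0.57 to 1.66).

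Il17a encodes the cytokine that defines Th17 cells, and it varied little. Its intensities were 70.3, 92.0 and 82.7 in fat Treg and 90.4, 90.5 and 76.4 in fat Tconv. Thymus Treg had 92.3, 77.3 and 86.4 and thymus Tconv 85.9, 81.1 and 85.6. Lymph node Treg had 83.2, 83.8 and 86.9 and lymph node Tconv 80.8, 105 and 111. The 2 highest arrays were lymph node Tconv, all 6 groups overlapped their neighbours in order, and the values lay not far above 65.5, the median of all values, on which the filter was set. No comparison was called; thymus Tconv differed from lymph node Tconv by -0.22 ± 0.14 (adjusted p = 0.424) and lymph node Treg from lymph node Tconv by -0.21 ± 0.14 (0.687). Fat Treg differed from lymph node Treg by -0.06 ± 0.14 (adjusted p = 0.765), and on the deposited values the sign turned and the change was called (0.35, adjusted p = 0.0472), at about the median change of all genes there, 0.37.

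The counts of called members are read here against all genes. Between Treg and Tconv of lymph node, 0 of 8 were called by limma and 0 had an unadjusted p under 0.05, with 4.59% of all genes called. The groups overlapped for all 8 members, where 18.1% of all genes did not overlap, and the median change was -0.05 over the members and -0.04 over all genes. Between Treg and Tconv of thymus, 0 of 8 were called and 1 (Jak1) had an unadjusted p under 0.05, with 5.51% of all genes called and medians of 0.01 over the members and -0.02 over all genes. Here too all 8 members overlapped, where 20.1% of all genes did not, and with the pairing as a block 1 (Il6ra) was called. Between Treg and Tconv of fat, 1 of 8 was called, and 3 with the pairing as a block (Il6ra lower, Stat3 and Jak2 higher). In that comparison, the groups did not overlap for 3 of 8 members, Il6ra, Jak1 and Jak2, where 27.4% of all genes did not overlap. The median change was 0.26 over the members and 0.00 over all genes.

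Between fat and lymph node the medians were -0.01 in Treg and -0.38 in Tconv over the members, and -0.01 and -0.04 over all genes. The groups did not overlap for 4 of 8 members in Treg and 6 of 8 in Tconv, where 50.6% of all genes in Treg and 37.1% in Tconv did not. Between thymus and lymph node, 1 of 8 members was called in Treg (Il6st, lower), with 12.5% of all genes called, 6.03% lower. Groups did not overlap for 2 members there, Il6st and Tyk2, where 24.3% of all genes did not. In Tconv 3 of 8 were called (Il6ra, Il6st and Stat3, all lower), with 9.36% of all genes called, 4.7% lower, and 4 members did not overlap where 27.9% of all genes did not. The Treg effect in fat minus that in lymph node was called for 0 of 8 members and for 5.34% of all genes, with 1 member (Jak2) at an unadjusted p under 0.05. The Treg effect in thymus minus that in lymph node was called for 0 of 8 members, none with an unadjusted p under 0.05, and for 0.351% of all genes.

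Over the 18 arrays, which share tissues, strains and array runs, some members went together. Stat3 and Jak2 correlated at r = 0.88, Stat3 and Tyk2 at 0.81 and Jak2 and Tyk2 at 0.74, whereas Il27ra correlated at -0.75 with Jak2 and at -0.73 with Stat3. Il6ra and Il6st, the chains that together bind IL-6, correlated at 0.48. The genes most like Stat3 were Nfkbiz (r = 0.94), Ppp1r2 (0.94) and Bag3 (0.93). Those most like Jak2 were Zfp703 (0.96), Cd209f (0.95) and Rel (0.94), those most like Jak1 were Lpcat3 (0.94), Tmem179b (0.92) and Zdhhc4 (0.90), and those most like Tyk2 were Pdzd8 (0.88), Snx13 (0.88) and Stxbp5 (0.87). Il6ra was most like Mrpl52 (0.88), Sting1 (0.85) and Myh9 (0.84), Il6st most like Ppox (0.89), Mrs2 (0.88) and Ctso (0.86), and Il27ra most like Zbtb24 (0.96), Ccdc93 (0.95) and Etnk1 (0.95). Il17a was most like Fmnl1 (0.87), Ankzf1 (0.82) and Rnf220 (0.80).

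The summed markers of macrophages, adipocytes and stromal cells were higher in the fat samples than in lymph node and those of B cells were lower. The summed intensity of 12 macrophage and monocyte markers was 1541 to 5408 in fat Treg, against 849 to 1109 in lymph node Treg, and 993 to 3198 in fat Tconv, against 753 to 984 in lymph node Tconv. Of the 9 of these markers that were tested, 7 were higher in fat Treg and 4 in fat Tconv. For 5 adipocyte markers the sums were 1945 to 2692 in fat Treg and 1560.3 to 2817 in fat Tconv, against 173 to 206 in lymph node Treg and 174 to 198 in lymph node Tconv, with Fabp4 the 1 of 2 tested that was called. For 7 stromal and endothelial markers they were 2298 to 6476 in fat Treg and 2153 to 4849 in fat Tconv, against 305 to 329 in lymph node Treg and 312 to 337 in lymph node Tconv. Among the 5 of these that were tested, 4 were higher and 1 lower in fat Treg, and 4 were higher and 0 lower in fat Tconv. The sums of 5 B cell markers were 375 to 431 in fat Treg, against 643 to 977 in lymph node Treg, and 365 to 469 in fat Tconv, against 577 to 757 in lymph node Tconv. Of the 4 of these that were tested, 2 were lower and 1 higher in fat Treg, and 1 was lower and 1 higher in fat Tconv. The sums of 5 NK and cytotoxic cell markers were 657 to 811 in fat Treg, against 705 to 814 in lymph node Treg (0 of 4 tested called), and 4503 to 4972 in fat Tconv, against 872 to 976 in lymph node Tconv (1 higher and 2 lower). The sums of 2 gamma delta T cell markers were 277 to 293 in fat Treg, against 179.8 to 266 in lymph node Treg. The part of these cells in the changes of Stat3, Jak2, Il6ra, Il6st and Il27ra between fat and lymph node was not tested. Nor was it tested for the ligands and other pathway genes described below. Between fat Treg and fat Tconv, 0 of 9 macrophage and monocyte markers were called, and 5 of 9 with the pairing as a block, and 2 of 4 NK and cytotoxic cell markers were lower in fat Treg. Their part in the differences of Jak2, Il6ra and Stat3 within fat was not tested. In thymus, 3 of 5 tested markers of immature thymocytes were higher than in lymph node in both cell types. The sums of 6 such markers were 767 to 4315 in thymus Treg and 1036 to 2986 in thymus Tconv, against 339.7 to 364 in lymph node Treg and 534 to 704 in lymph node Tconv. B cell marker sums were 301 to 386 in thymus Treg and 272 to 320.1 in thymus Tconv, below the lymph node sums given above, with 2 of 4 markers lower in each. NK and cytotoxic cell marker sums were 1724 to 7826 in thymus Treg and 1154 to 1888 in thymus Tconv, above those of lymph node, with 1 of 4 markers higher in Treg, and 1 higher and 3 lower in Tconv. The part of these cells in the changes of Il6ra, Il6st and Stat3 was not tested.

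Among the ligands, Ebi3, which encodes the subunit shared by interleukin-27 and interleukin-35, was higher in Treg than in Tconv of fat (2.54 ± 0.18), thymus (2.17 ± 0.18) and lymph node (1.93 ± 0.18). In Tconv of these tissues it averaged 60.9, 44.9 and 56.6, under 65.5, the level of the filter on dim signals. Ebi3 passed that filter through the Treg groups, where it was higher, so these differences are a description with no test. For Il6 the intensities were 205, 27.7 and 57.9 in fat Treg, against 8.73, 7.96 and 9.58 in lymph node Treg, and 62.2, 23.6 and 34.4 in fat Tconv, against 9.37, 8.78 and 8.03 in lymph node Tconv. The fat arrays were all above the lymph node arrays, with a wide spread and replicate 1 highest in both cell types. Il6 passed the filter on dim signals through fat Treg alone, the group in which it was highest, so its values are a description with no test. Of the other 5 tested ligands, 1 (Ebi3) was called higher in fat Treg against lymph node Treg, where 35.3% of all genes were called. None of 6 tested receptor genes of this and related families was called between fat and lymph node, and Crlf2, a chain of the TSLP receptor, which does not use gp130, alone fell in thymus against lymph node, by 1.03 in Treg and by 1.04 in Tconv, where the call held under 10 of 13 alternatives (adjusted p up to 0.0818). Il12rb1, a chain of the interleukin-12 and interleukin-23 receptors that binds TYK2, had 255, 289.5 and 296 in fat Treg, against 142, 124 and 183 in fat Tconv (0.92 ± 0.16, adjusted p = 0.000534), and rose in fat Treg and fat Tconv over lymph node (0.93 ± 0.16 in Treg and 0.75 ± 0.16 in Tconv). Of the 4 genes that govern receptor shedding, 2 rose and 1 fell in fat Treg against lymph node Treg (35.3% of all genes called). The largest of these changes was in Timp3, an inhibitor of the protease that cleaves the IL-6 receptor, which rose in fat Treg (1.64 ± 0.31) and fat Tconv (1.40 ± 0.31). The part of stromal and other cells in the values of Timp3 and Il6 was not tested.

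The feedback inhibitor Socs3, which binds gp130 and the JAKs and is itself induced by STAT3, was lower in fat Treg than in fat Tconv. Its intensities were 1907, 832 and 796 in fat Treg, against 3788, 3564 and 3398 in fat Tconv. The groups did not overlap (-1.73 ± 0.38, adjusted p = 0.00474), in the comparison in which Jak2 was higher. It rose in fat Tconv against lymph node Tconv (1.47 ± 0.38, adjusted p = 0.00958; up to 0.0587 over 14 alternatives, without lymph node Tconv replicate 1), was not told apart between fat and lymph node Treg (-0.70, adjusted p = 0.171) and fell in thymus Treg and thymus Tconv against lymph node (-1.98 ± 0.38 and -2.46 ± 0.38). Ptpn6, the phosphatase SHP-1 that dampens JAK signalling, fell in fat Treg (-1.53 ± 0.18) and fat Tconv (-0.95 ± 0.18) against lymph node. It was the 1 of 10 negative regulators that fell there, while 2 rose in fat Treg and 4 in fat Tconv. Of all genes, 35.3% were called in that comparison in Treg and 23.3% in Tconv. Cish, also on that list, was among those that rose (1.14 in fat Treg and 1.53 in fat Tconv). Of the 10 negative regulators, 1 was higher and 3 were lower in fat Treg against fat Tconv, where 12.8% of all genes were called, with a median change of -0.19 against 0.00 over all genes. Il10ra, the receptor through which interleukin-10 activates STAT3, had 832, 964 and 1107 in fat Treg, against 53.9, 146 and 139.9 in fat Tconv and 129, 109 and 116 in lymph node Treg (3.22 ± 0.30 and 3.03 ± 0.30).

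Of 17 tested genes that STAT3 is known to induce, 4 were higher and 4 lower in fat Treg against fat Tconv, where 12.8% of all genes were called. In fat Treg against lymph node Treg, 6 were higher and 2 lower, where 16% of all genes were called higher and 19.3% lower. Pim1, a survival kinase gene, had 4908, 4808 and 4951 in fat Treg, against 1714, 1469 and 1546 in fat Tconv and 1409, 1199 and 885 in lymph node Treg. Bcl3, a nuclear partner of NF-kB, was higher in fat Treg than in fat Tconv (2.20 ± 0.23), and the survival gene Bcl2 was lower (-3.83 ± 0.31). The median change of the list was 0.39 between fat and lymph node Treg and 0.15 between fat and lymph node Tconv, beside -0.01 and -0.04 over all genes. In thymus Tconv, none was higher and 4 were lower than in lymph node Tconv, where 9.36% of all genes were called.

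Of 11 tested regulators of the Th17 programme, 6 rose and 2 fell in fat Treg against lymph node Treg, where 16% of all genes were called higher and 19.3% lower. In fat Tconv against lymph node Tconv 6 rose and none fell, where 11% were called higher and 12.3% lower. Rora, a Th17 nuclear receptor gene, rose by 3.47 ± 0.27 in fat Treg and 3.27 ± 0.27 in fat Tconv. Nfkbiz, which cooperates with it in Th17 cells, rose by 1.89 ± 0.25 in fat Treg and was the gene most like Stat3 over the arrays. In the same comparison Ahr (-1.75 ± 0.25) and the TGF-beta receptor gene Tgfbr1 (-1.66 ± 0.22) fell. Both were higher in lymph node Treg than in lymph node Tconv (3.06 and 1.77). Of the 11 regulators, 6 were higher in Treg than in Tconv of lymph node and none lower, where 4.59% of all genes were called. In thymus 4 were higher and 1 lower (5.51% of all genes called), and in fat 4 were higher and none lower (12.8%). Of 8 tested Th17 effector and receptor genes, 1 rose and 1 fell in fat Treg against lymph node Treg, where 35.3% of all genes were called. The chemokine receptor gene Ccr6 fell (-2.71 ± 0.25) and Csf2 rose (1.99 ± 0.18). Il21, the Th17 growth factor gene, was lower in Treg than in Tconv of fat (-2.04), thymus (-1.87, a call that held under 11 of 14 alternatives) and lymph node (-3.07). For Ebi3, Il21, Csf2 and Junb, and for Il10ra in Tconv, the lower of the groups compared averaged under 65.5, the level of the filter, so the size of these differences is uncertain. These genes passed the filter through groups where they were higher, so their differences are a description. Il17f and Il22 had no probe set with their symbol alone and were not analysed here.

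**Figure D4:**
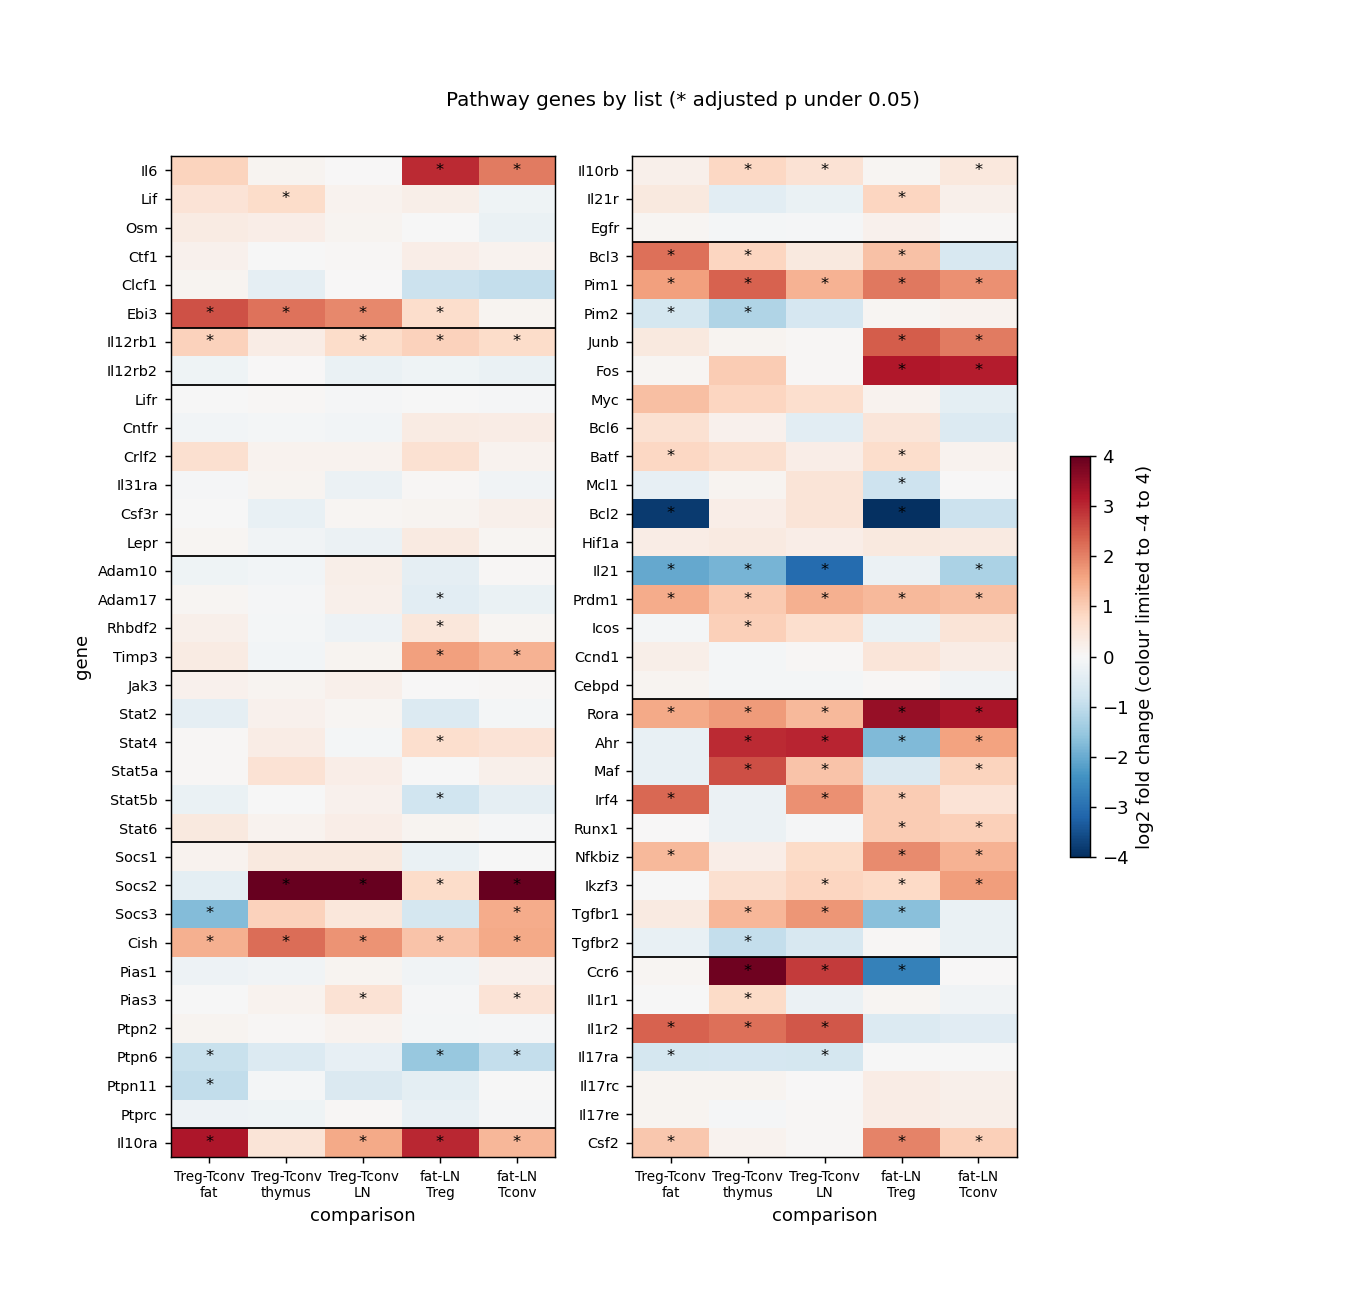
Log2 fold change of the tested genes of the pathway lists in 5 comparisons, from Treg against Tconv in 3 tissues (LN is lymph node) to fat against lymph node in 2 cell types; black lines part the lists and stars mark an adjusted p under 0.05. Il10ra, Rora, Fos and Junb are higher in fat in both cell types, and Bcl2 and Ccr6 are lower in fat Treg than in lymph node Treg.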

How the data were processed

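The authors deposited 1 intensity per probe set and array on a linear scale, made from Affymetrix M430v2 scans with RMA in GenePattern per the series' design text; versions, and which arrays were normalized together, are not given in the sources used here. Of 45101 probe sets, 64 controls were left out, 34945 had 1 gene symbol in GEO's platform annotation, 932 had several and 9160 had none. The deposited intensities were taken to log2, and the 18 arrays were quantile-normalized with limma 3.58.1 in R 4.3.3. The probe set with the highest mean stood for a gene, and genes whose mean lay at or under the overall median in all 6 groups were not tested. lmFit and eBayes were run with 1 coefficient per group over 18 arrays, for 9 contrasts, with Benjamini-Hochberg adjustment over 12258 genes and a threshold of 0.05. The procedure was tested on simulated data.

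The members, the gene lists and the tests were chosen with earlier results of these data known. The text names the members, the called genes of each pathway list (at most the 3 largest in each direction per list and contrast, of which a selection is given) and, for each member, the 3 genes with the highest correlation over 18 arrays; Socs3 between fat and lymph node Treg was added after its value was seen. No 2 arrays of the same group were duplicates: at most 0.0333% of values were identical between arrays of a group. Arrays of different groups were not compared in this way. Treg and Tconv arrays of a tissue with the same number deviated together from their group means (r = 0.36 to 0.66 in the 9 such pairs, -0.52 to 0.19 in the others), so the number was used as a block in an alternative fit. The labels do not say what the number marks. Alternatives were the deposited values, arrays centred on their median, no filter, a filter at an intensity of 131, the mean of all probe sets of a gene, a fit of the compared groups only, a trended and robust prior, the replicate block, the array run as a block, and each array left out.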

Additional observations from a re-analysis of the deposited data

Results flagged for a closer look

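The difference between Treg and Tconv differed between tissues for 11 of 70 tested genes of the pathway lists (9 between fat and lymph node, where 5.34% of all genes were called, and 2 between thymus and lymph node, where 0.351% were) and for no member, each tested as an interaction term in the limma fit over 12258 genes. Comparing fat with lymph node, the Treg effect was higher in fat for Bcl3 (1.82, SE 0.33, adjusted p = 0.00201), Il10ra (1.70, SE 0.42, adjusted p = 0.021) and Csf2 (1.05, SE 0.25, adjusted p = 0.017). It was lower in fat for Socs2 (-4.62, adjusted p = 1.52e-07), Bcl2 (-4.33, adjusted p = 6.62e-06), Ahr (-3.37, adjusted p = 9.66e-06), Ccr6 (-2.73, adjusted p = 7.62e-05), Socs3 (-2.17, adjusted p = 0.0232) and Tgfbr1 (-1.41, adjusted p = 0.0107). Between thymus and lymph node it was higher in thymus for Il1r1 (0.99, adjusted p = 0.0366) and lower in thymus for Irf4 (-2.06, adjusted p = 0.0246). Of the 9 fat results, 5 (Ahr, Bcl2, Bcl3, Ccr6 and Socs2) held under all 21 alternatives run, and neither thymus result did. Socs2, Csf2, Il10ra and Il1r1 averaged under 65.5, the level of the filter, in at least 1 of the groups in these terms, so the size of their difference is uncertain. They passed the filter through groups where they were higher, so these calls are a description. Groups of 3 arrays were not examined for outlying arrays.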

How the results depend on the processing

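Of the member results, 527 of 559 under the processing alternatives and 502 of 528 with an array left out stayed on their side of the threshold. Most of these results were not called to begin with, so these shares say little about how firm the calls are. A call was lost in 11 results under the processing alternatives and in 22 with an array left out. One was gained in 20 and in 4. The sign of 1 result turned: Il17a between fat and lymph node Treg was 0.35 (adjusted p = 0.0472) on the deposited values. The number of called members was 1 with the replicate block (pairing) between Treg and Tconv in thymus, against 0. Between Treg and Tconv in fat it was 1, and 0 with no filter, 3 with the mean of all probe sets and 3 with the replicate block. Between fat and lymph node Tconv it was 3, and 5 on the deposited values, with the mean of all probe sets, with the compared groups only and with the array run as a block. Between thymus and lymph node Treg it was 1, and 0 with the mean of all probe sets; in Tconv it was 3, and 1 on the deposited values, on centred arrays and with the mean of all probe sets. For the Treg effect in fat minus that in lymph node it was 0, and 1 with the compared groups only, 2 with the replicate block and 1 with the array run as a block. The replicate block changed no other member call.

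With 1 array left out, the called members numbered 4 to 5 between fat and lymph node Treg, 2 to 3 between fat and lymph node Tconv, 1 to 2 between thymus and lymph node Treg and 0 to 2 between thymus and lymph node Tconv. They numbered 0 to 1 between Treg and Tconv in fat, 0 to 1 in thymus and 0 to 0 in lymph node, and 0 to 0 for both interaction terms. Of all genes, the replicate block called 2837 between Treg and Tconv in fat against 1563, 1640 in thymus against 676, 1081 in lymph node against 563, and 1447 and 137 for the interaction terms in fat and thymus against 655 and 43. The array run as a block called 1029 for the fat term. A fit of the compared groups only called 403 between Treg and Tconv in thymus and 774 between thymus and lymph node Treg, against 1537. Without thymus Treg replicate 3 the thymus count was 1077, and without thymus Treg replicate 1 the count between thymus and lymph node Treg was 957; the thymus term ran from 19 to 65. On the deposited values, 7018 genes were called between fat and lymph node Treg, against 4329, and 5425 in Tconv, against 2859. There 83.2% of calls in Treg and 90.3% in Tconv were higher in fat, against 45.4% and 47.3%, with a median change of 0.37 in Treg and 0.33 in Tconv.

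Of 128 named calls of pathway genes, 88 held in every alternative, 40 were lost in at least 1, and 1 turned in at least 1; between thymus and lymph node, 5 of 13 held in every alternative in Treg and 4 of 11 in Tconv. With 3 arrays a group and amplified RNA, the measured spread limits what can be called, and dim probe sets such as that of Il17a lie near the filter.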

Other observations

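Socs2 and Cish are feedback inhibitors that STAT5 is known to induce. Socs2 was 854, 986 and 966 in fat Treg, 897, 625 and 410.3 in thymus Treg and 691, 453 and 583 in lymph node Treg, against 1189, 1339 and 1162 in fat Tconv, 35.8, 25.3 and 19.7 in thymus Tconv and 28.9, 29.6 and 32.6 in lymph node Tconv. It was higher in Treg than in Tconv of thymus and lymph node, and in fat Tconv than in lymph node Tconv. Thymus and lymph node Tconv lay under 65.5, the level of the filter, so no size is given for these differences. Socs2 passed the filter through the groups where it was higher, so they are a description with no test. Cish was higher in Treg of fat (1.42 ± 0.18), thymus (2.25 ± 0.18) and lymph node (1.81 ± 0.18).

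Among the other JAK and STAT genes, Stat4 was higher (0.69 ± 0.24) and Stat5b lower (-0.80 ± 0.17) in fat Treg than in lymph node Treg, the first under 8 and the second under 13 of 14 alternatives. Bcl2 had 112, 181 and 131 in fat Treg, against 1071, 3589 and 1972 in fat Tconv and 5195, 5089 and 4848 in lymph node Treg.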
